A study of Homo sapiens with 12 samples.

Results

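The genes described here are 38 genes of the ATF4 programme and of amino acid synthesis, taken by their current symbols from a table of read counts for 28395 gene identifiers. All 38 were in the table, and 37 had enough counts to be tested among 13469 genes. They fall into 8 regulators, 6 stress effectors and feedback genes, 7 enzymes of asparagine, serine and one-carbon metabolism, 6 enzymes that make proline, cysteine, alanine and phosphoenolpyruvate (PEP), and 11 aminoacyl-tRNA synthetases.

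The cells were BEAS-2B, an established human line from bronchial epithelium that was immortalised with a virus, and RNA was sequenced from 12 libraries. One group of 3 libraries received TGF-β1 at 40 pM for 24 h. Another received dexamethasone, a synthetic glucocorticoid, at 30 nM for 4 h, and a combined group received TGF-β1 for 24 h and then dexamethasone for a further 4 h. The control group of 3 libraries was untreated. All 4 groups were kept for 24 h in medium free of serum and steroid before treatment, a medium that held glutamine, pyruvate and non-essential amino acids. The vehicle is not given in the labels, nor whether the cells with TGF-β1 alone were harvested with the others after the 4 h of dexamethasone. The series text calls the libraries biological triplicates, and 1 cell line limits the comparison to that line. The growth protocol names A549 cells, whereas the other label fields name BEAS-2B.

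ATF4 is a basic leucine zipper transcription factor whose mRNA is translated preferentially when the initiation factor eIF2 is phosphorylated, as happens when amino acids run short or when proteins misfold in the endoplasmic reticulum. With partners of the C/EBP family it binds C/EBP-ATF response elements and switches on genes that import amino acids, synthesise them and charge them onto tRNA. In lung fibroblasts, TGF-β1 is known to raise ATF4 and the synthesis of serine, glycine and proline. Since ATF4 is controlled largely by translation, its mRNA is not a measure of its protein.

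Promoters were searched for a C/EBP-ATF response element, which a minority of the genes held. The letters searched were TGATGNAA on both strands, where N is any base, in windows of 250 bases before to 50 bases after each start in RefSeq on build GRCh38.p14. Windows were found for 30 of the 38 genes, and 11 of the 30 genes (36.7%) held a match, against 1217 of 27305 genes (4.46%) with a window. The list was drawn up from the ATF4 programme, so a share above that of all genes is no separate result. The windows below belong to the 6 genes with a match and the largest rise with TGF-β1, read 5′ to 3′ on the strand of the gene, with the match in capitals.
CHAC1: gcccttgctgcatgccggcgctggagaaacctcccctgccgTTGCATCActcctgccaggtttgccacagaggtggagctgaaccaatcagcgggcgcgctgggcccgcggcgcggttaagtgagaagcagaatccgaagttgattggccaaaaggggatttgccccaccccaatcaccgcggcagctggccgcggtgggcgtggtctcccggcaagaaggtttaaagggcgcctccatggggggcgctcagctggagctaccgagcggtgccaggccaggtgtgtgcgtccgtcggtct
ASNS: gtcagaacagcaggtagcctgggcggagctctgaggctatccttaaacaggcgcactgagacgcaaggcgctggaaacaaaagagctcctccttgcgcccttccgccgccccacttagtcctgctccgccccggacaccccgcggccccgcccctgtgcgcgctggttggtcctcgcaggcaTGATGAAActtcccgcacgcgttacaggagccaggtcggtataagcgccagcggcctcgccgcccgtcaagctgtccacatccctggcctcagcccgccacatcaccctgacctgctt
MTHFD1L: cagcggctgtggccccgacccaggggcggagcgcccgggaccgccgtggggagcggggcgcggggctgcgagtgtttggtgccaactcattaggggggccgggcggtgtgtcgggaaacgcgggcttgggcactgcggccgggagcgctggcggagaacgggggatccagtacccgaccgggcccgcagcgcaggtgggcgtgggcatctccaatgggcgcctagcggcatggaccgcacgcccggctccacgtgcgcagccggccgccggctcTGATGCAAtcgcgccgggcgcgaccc
GARS1: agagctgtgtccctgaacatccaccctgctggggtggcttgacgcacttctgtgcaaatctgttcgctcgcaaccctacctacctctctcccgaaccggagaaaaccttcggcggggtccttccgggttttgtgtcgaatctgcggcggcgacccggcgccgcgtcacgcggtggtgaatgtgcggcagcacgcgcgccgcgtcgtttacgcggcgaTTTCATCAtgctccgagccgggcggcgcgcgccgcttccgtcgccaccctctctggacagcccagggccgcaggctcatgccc
IARS1: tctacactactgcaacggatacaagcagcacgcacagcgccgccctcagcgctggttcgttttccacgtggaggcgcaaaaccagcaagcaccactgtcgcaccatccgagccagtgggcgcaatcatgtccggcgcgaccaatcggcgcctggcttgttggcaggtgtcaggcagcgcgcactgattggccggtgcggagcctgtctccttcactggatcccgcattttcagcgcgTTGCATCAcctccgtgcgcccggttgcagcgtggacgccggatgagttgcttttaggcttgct
TARS1: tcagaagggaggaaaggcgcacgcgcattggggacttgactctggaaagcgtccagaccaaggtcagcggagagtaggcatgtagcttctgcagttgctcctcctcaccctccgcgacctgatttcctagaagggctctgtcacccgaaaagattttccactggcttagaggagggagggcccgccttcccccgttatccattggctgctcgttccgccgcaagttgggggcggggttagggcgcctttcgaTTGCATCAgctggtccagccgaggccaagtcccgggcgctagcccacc
The matches in CHAC1, GARS1, IARS1 and TARS1 lie on the strand opposite to the gene, and those in ASNS and MTHFD1L on the strand of the gene. The windows are chr15:40953221-40953520 (plus strand) for CHAC1, chr7:97872359-97872658 (minus strand) for ASNS and chr6:150866083-150866382 (plus strand) for MTHFD1L. Those of GARS1, IARS1 and TARS1 are chr7:30594628-30594927 (plus strand), chr9:92293648-92293947 (minus strand) and chr5:33440715-33441014 (plus strand). The matches in AARS1 and CHAC1 started 187 and 209 bases before the annotated start. In ASNS the match started at -68, in CEBPG at -42, in GARS1 at -33, in JDP2 at -16 and in IARS1 at -13. In MARS1 and CARS1 it started at -4 and -2, and in TARS1 at 3 and in MTHFD1L at 25 after the start shown. The other MTHFD1L windows with the match start further downstream and hold the same site. Of the 20 genes that rose with TGF-β1 and had a window, 9 held the letters, and of the 9 other tested genes with a window 2 did (AARS1 and JDP2). The full cyclic AMP response element TGACGTCA was found in 1 of 30 genes, PPP1R15A, where it started at -58, and in 2.25% of all genes with a window. The palindromic SMAD-binding element GTCTAGAC was found in 0 of 30 genes and in 0.256% of all genes with a window. A match says that these letters are in the window, and no binding was measured.

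Library totals ran from 5861591 to 7008203 counts in replicates 1 and 2 of each group and from 17968961 to 19727235 in replicate 3. The 38 genes together took 0.385 to 0.404% of the counts with TGF-β1, 0.315 to 0.339% with dexamethasone, 0.368 to 0.399% with both and 0.301 to 0.333% in control. All 3 TGF-β1 libraries and all 3 combined libraries lie above the 3 control libraries. Levels below are CPM, read counts relative to library sizes that were scaled by the TMM method. Effects are log2 fold changes ± SE by the quasi-likelihood test of edgeR, and p-values were adjusted by Benjamini-Hochberg over all 13469 genes. A gene is said to rise or fall where its adjusted p is under 0.05. In bulk RNA, fewer cells of a type and less RNA per cell cannot be told apart.

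Markers of cell types were read beside the programme. All 10 epithelial genes were detected, with KRT8 at 470 to 921 CPM, EPCAM at 4.70 to 10.9 and TP63 at 18.8 to 43.1 over the 12 libraries. The 10 summed to 3362 to 5240 CPM with TGF-β1, 3616 to 5310 with dexamethasone, 4808 to 7547 with both and 2721 to 3543 in control. That sum is carried largely by keratins, and its genes moved both ways with TGF-β1 against control. KRT17 (1.68) and KRT7 (0.76) rose, whereas KRT19 (-1.63), KRT18 (-1.27) and CDH1, the adhesion protein E-cadherin (-0.65), fell. Of all genes tested 16.2% rose and 16.6% fell. With the replicate block 4 of the 10 rose and 4 fell, beside 3308 and 3433 of all 13469 genes tested.

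The 7 fibroblast genes summed to 9964 to 12380 CPM with TGF-β1, 668 to 1001 with dexamethasone, 8860 to 10970 with both and 724 to 1047 in control. COL1A1, a collagen gene that TGF-β1 induces in many cell types, reached 11790 CPM and makes up most of that sum, and it rose with TGF-β1 by 4.21 ± 0.20. PDGFRB, a growth factor receptor of mesenchymal cells, had 29.4 to 200 CPM and rose by 2.34 ± 0.13 (5.06-fold, adjusted p = 1.82e-08), and THY1 had 216 to 824 CPM. Of the 4 fibroblast genes tested, 2 rose and 0 fell with TGF-β1, where 16.2% of all genes tested rose and 16.6% fell. With the block 3 rose and 1 fell, beside 3308 and 3433 of all 13469 genes tested. ACTA2, the scarcest of the 4, had 1.04 to 4.14 CPM. It fell by 1.06 ± 0.28 in both treatments against dexamethasone (edgeR adjusted p = 0.00996). DCN and LUM were at 0 to 0.309 CPM. Of the leukocyte genes, CD68 had 10.1 to 19.5 CPM, and PTPRC, CD3E, LYZ and ITGAM were at 0 to 0.304 CPM. The 8 genes listed for alveolar and A549 cells summed to 2.45 to 5.57 CPM with TGF-β1, 9.76 to 14.1 with dexamethasone, 4.14 to 12.01 with both and 3.91 to 6.67 in control. Their most abundant member, AKR1B10, had 0 to 8.95 CPM, with an effect of -3.04 ± 0.65 with TGF-β1 (adjusted p = 0.0024) and 2.41 ± 0.36 with dexamethasone (adjusted p = 3.80e-04). AKR1C2 and AKR1C3 reached 5.39 and 4.87 CPM, and SFTPB, NAPSA and NKX2-1 were at 0 to 0.483 CPM. The part of these marker levels in the results below was not tested.

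Most of the programme was higher with TGF-β1. Against control, 26 of the 37 tested genes rose and 0 fell, where 16.2% of all genes tested rose and 16.6% fell. By edgeR, 0 of the 37 were lower at an unadjusted p under 0.05, and DESeq2 also called 26 higher and 0 lower. The median log2 fold change of the 37 genes was 0.55, beside -0.01 for all genes tested. The counts with the replicate number as a block were also 26 and 0. More of all genes tested were called with the block, as listed under how the results depend on the processing. For each of the 26 genes that rose, all 3 TGF-β1 libraries lay above the control library of the same number. The same libraries picked these genes, so this is no separate support. It also held for CTH, AARS1, EPRS1 and STC2, which were not called. The largest effects belonged to ADM2 and CHAC1 among the stress effectors and to PYCR1 among the enzymes. ADM2 passed the count filter only through the groups with TGF-β1, and CHAC1 only through the treated groups. For both genes a rise was favoured by the filter.

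**Figure D1:**
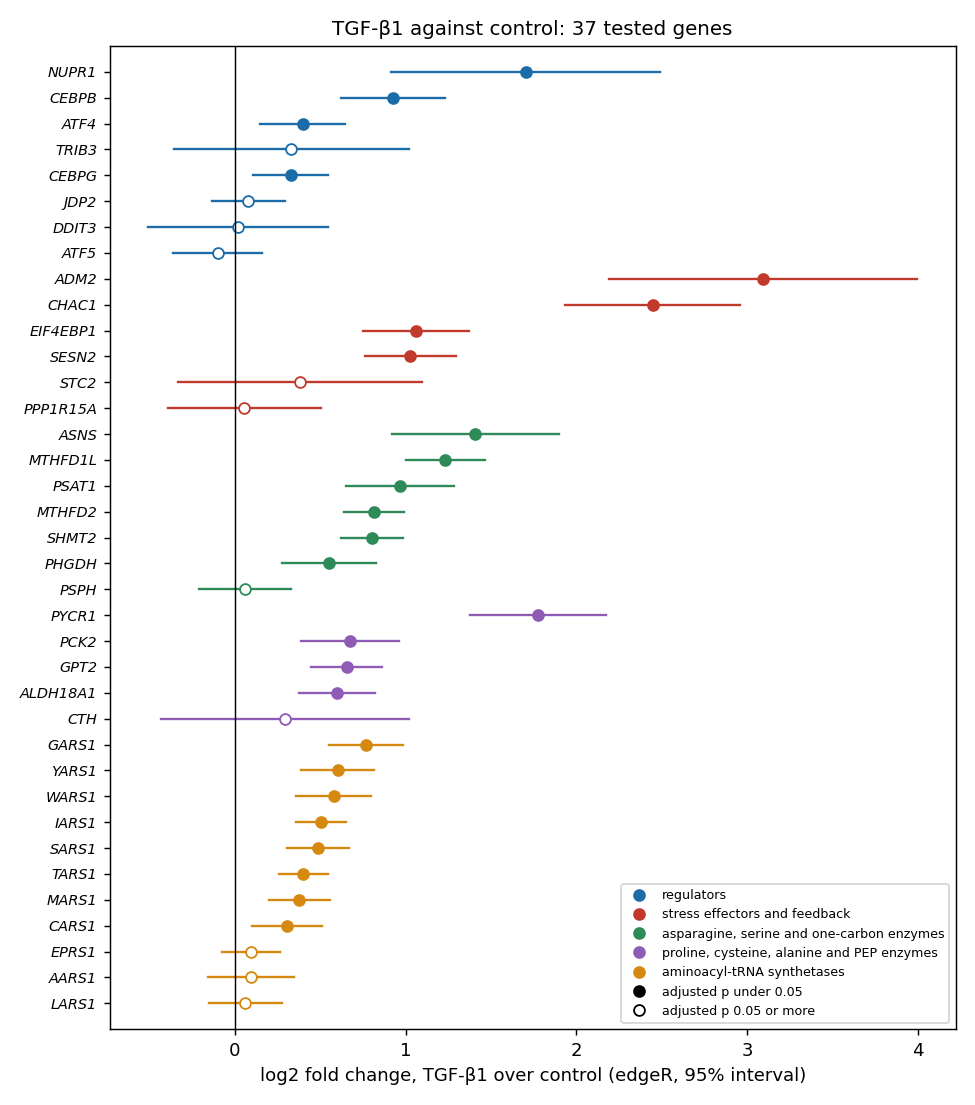
Log2 fold change of TGF-β1 over control (x axis) for the 37 tested genes (y axis), grouped by role and ordered by size within a role, with lines for the 95% interval of edgeR and filled points for adjusted p under 0.05. No filled point lies left of 0, and ADM2 at 3.09 and CHAC1 at 2.45 lie furthest to the right.

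ATF4 itself was the most abundant of the 38 transcripts in control cells when levels were divided by exon length, at 78.6 CPM per kb, ahead of the synthetases SARS1 at 73.8 and AARS1 at 65.2 CPM per kb. It had 286, 255 and 239 CPM with TGF-β1, 205, 200 and 165 with dexamethasone, 308, 269 and 256 with both and 210, 214 and 168 in control, in replicates 1 to 3. All 3 TGF-β1 libraries and all 3 combined libraries lie above the highest control library, and the dexamethasone libraries overlap control. The effect of TGF-β1 on ATF4 was 0.40 ± 0.12 (edgeR adjusted p = 0.0171; 2.99e-06 with the replicate block). The call was lost without control replicate 3 (log2 fold change 0.28, adjusted p = 0.103), without TGF-β1 replicate 1 (0.33, adjusted p = 0.0803), without all 4 libraries numbered 1 (0.38, adjusted p = 0.123) and with scaling by library size alone (0.19, adjusted p = 0.182).

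Among the other regulators, NUPR1, CEBPB and CEBPG rose with TGF-β1 and 4 did not pass the test. CEBPB, a C/EBP factor that can pair with ATF4, had 241, 154 and 214 CPM with TGF-β1 and 120, 104 and 97.4 CPM in control. The groups do not overlap, and the effect was 0.92 ± 0.14 (adjusted p = 1.98e-04). NUPR1, a small stress-induced nuclear protein, had 41.2, 27.8 and 46.7 CPM with TGF-β1 and 14.2, 6.05 and 14.4 CPM in control, an effect of 1.70 ± 0.36 (adjusted p = 0.00375). Replicate 2 was the lowest library in both groups. NUPR1's call was lost when all 4 libraries numbered 1 (1.797, adjusted p = 0.0542) or 3 (1.75, adjusted p = 0.0596) were left out, with effects no smaller than with all libraries. CEBPG, the C/EBP partner that lacks an activation domain, rose by 0.33 ± 0.10 (adjusted p = 0.0239), a call lost without control replicate 1 (adjusted p = 0.0683) or 3 (0.0771), without TGF-β1 replicate 1 (0.0581) or 3 (0.107), without all libraries numbered 1 (0.187) or 3 (0.2), and under library size alone (0.365).

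DDIT3, which encodes the death-promoting factor CHOP, did not pass the test. It had 12.1, 7.73 and 11.8 CPM with TGF-β1 and 9.86, 8.85 and 12.2 CPM in control, and the groups overlap fully. Its effect was 0.02 with a 95% interval of -0.51 to 0.55 (adjusted p = 0.963). ATF5, a close relative of ATF4, had an effect of -0.10 (interval -0.36 to 0.16), and JDP2, a leucine zipper repressor, one of 0.08 (interval -0.14 to 0.29). TRIB3, a pseudokinase that restrains ATF4 and AKT, had 92.3, 38.4 and 84.1 CPM with TGF-β1 and 66.9, 46.2 and 58.2 CPM in control. Its replicate 2 lay below all control libraries and its other replicates above them, and the effect was 0.33 ± 0.31 (adjusted p = 0.457). Without the 4 libraries numbered 2 the TRIB3 effect was 0.50 (adjusted p = 0.00937).

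Of the 6 stress effectors and feedback genes, 4 rose with TGF-β1. CHAC1, which degrades glutathione, had 7.71, 8.97 and 8.75 CPM with TGF-β1 and 1.36, 2.17 and 1.35 CPM in control. All TGF-β1 libraries lie far above the control libraries, with counts of 44 to 156 reads against 9 to 28. The effect was 2.45 ± 0.24 (5.45-fold, adjusted p = 3.03e-06). The count filter scales its minimum to library depth, and control replicate 2 alone reached it among the controls. CHAC1 was therefore tested because it is high in the treated groups. ADM2, a secreted peptide of the calcitonin family also called intermedin, had 20, 15 and 54 reads with TGF-β1 and 1, 5 and 5 reads in control. It was the scarcest tested transcript, with 188 counts over 12 libraries. Its effect of 3.09 ± 0.42 carries a 95% interval of 2.19 to 3.99 (adjusted p = 6.48e-05). ADM2 reached the minimum count of 10 only in the groups with TGF-β1, and it was tested because it is high there. SESN2, a leucine sensor that restrains the mTORC1 kinase, had 34.3, 26.0 and 31.2 CPM with TGF-β1 and 15.9, 15.7 and 13.8 CPM in control, with no overlap, an effect of 1.03 ± 0.12 (adjusted p = 2.38e-05). EIF4EBP1, an inhibitor of cap-dependent translation, rose by 1.06 ± 0.14 (adjusted p = 6.73e-05).

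PPP1R15A encodes GADD34, the phosphatase subunit that reverses eIF2 phosphorylation. It had 100, 61.2 and 81.4 CPM with TGF-β1 and 84.8, 75.9 and 73.2 CPM in control, and the control libraries lie within the TGF-β1 range. The effect was 0.06 (interval -0.39 to 0.50, adjusted p = 0.863). STC2, a secreted glycoprotein, had an effect of 0.38 with a wide interval of -0.33 to 1.10, and its control libraries alone ran from 110 to 269 CPM.

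The enzymes of asparagine, serine and one-carbon metabolism rose in 6 of 7 cases. ASNS, which makes asparagine, had 36.6, 21.3 and 33.8 CPM with TGF-β1 and 11.5, 12.6 and 10.9 CPM in control. Its lowest TGF-β1 library, replicate 2, was still above the highest control library, and the effect was 1.41 ± 0.23 (adjusted p = 3.34e-04). PHGDH and PSAT1, the first steps of serine synthesis from glycolysis, rose by 0.55 ± 0.13 (adjusted p = 0.00435) and 0.97 ± 0.15 (adjusted p = 1.69e-04). The PHGDH call was lost without all libraries numbered 3 (0.45, adjusted p = 0.0823). PSPH, the phosphatase that completes the pathway, had 16.6, 14.8 and 15.6 CPM with TGF-β1 and 13.0, 16.6 and 15.4 CPM in control. These libraries overlap, and the effect was 0.06 (interval -0.21 to 0.33).

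SHMT2, MTHFD2 and MTHFD1L carry the mitochondrial one-carbon pathway that turns serine into glycine and formate, and all 3 rose. SHMT2 had 238, 216 and 216 CPM with TGF-β1 and 130, 134 and 122 CPM in control, an effect of 0.80 ± 0.08 (adjusted p = 6.66e-06). MTHFD1L, whose product releases formate, had 76.9, 67.3 and 78.4 CPM with TGF-β1 and 32.0, 30.9 and 31.9 CPM in control, an effect of 1.23 ± 0.11 (adjusted p = 1.21e-06). MTHFD2 rose by 0.81 ± 0.08 (adjusted p = 4.08e-06). In each of these 3 genes the TGF-β1 libraries were close to each other and well above the control libraries.

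**Figure D2:**
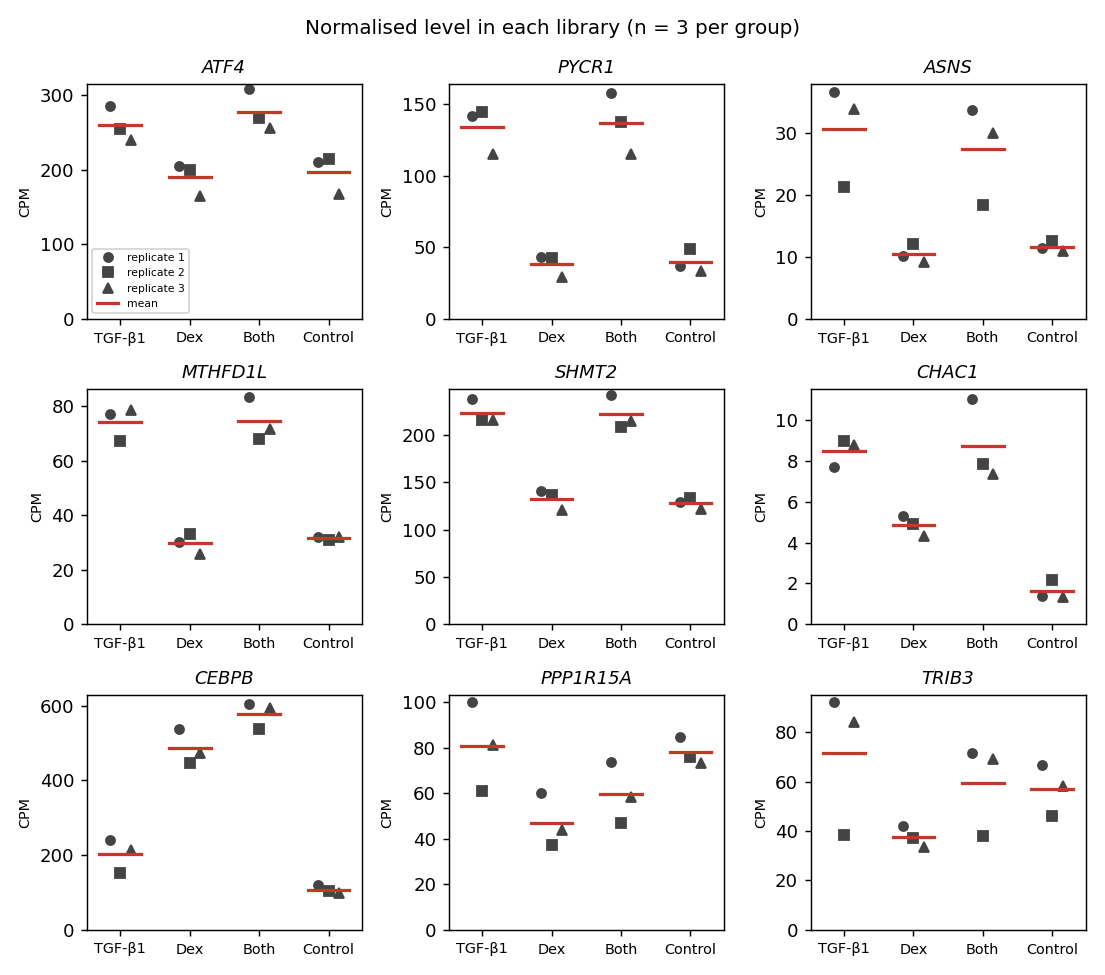
CPM in each library (y axis, from 0) of 9 genes by group (x axis), with a symbol for each replicate number and a red line for the mean of 3 libraries. PYCR1, MTHFD1L and SHMT2 are high in the TGF-β1 and combined groups, CEBPB is highest in the 2 groups with dexamethasone, and CHAC1 is above control in all 3 treated groups.

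Both proline enzymes rose. PYCR1, the mitochondrial reductase that completes proline synthesis, had 142, 145 and 115 CPM with TGF-β1 and 36.7, 48.6 and 33.1 CPM in control. The lowest TGF-β1 library had more than any control library by a wide margin, and the effect was 1.77 ± 0.18 (3.42-fold, adjusted p = 1.04e-05). ALDH18A1, which carries out the first steps from glutamate, rose by 0.60 ± 0.10 (adjusted p = 4.65e-04). GPT2, the mitochondrial alanine transaminase, rose by 0.65 ± 0.10 (adjusted p = 1.46e-04), and PCK2, the mitochondrial enzyme that makes PEP, by 0.67 ± 0.13 (adjusted p = 0.00137). The PCK2 call was lost without all libraries numbered 1 (0.60, adjusted p = 0.0503). The transsulfuration genes of cysteine synthesis were scarce. CTH had 398 counts over 12 libraries and an effect of 0.29 (interval -0.43 to 1.02). CBS had 132 counts over 12 libraries, between 3 and 22 in each. It fell short of the count filter that ADM2, with 188 counts, passed through the groups with TGF-β1. CBS has a near-identical copy, CBSL, that the table does not list, so its counts are uncertain.

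The aminoacyl-tRNA synthetases, which charge tRNAs with their amino acids, rose in 8 of 11 cases, with a median effect of 0.40. The glycine enzyme GARS1 had 190, 177 and 182 CPM with TGF-β1 and 114, 114 and 95.4 CPM in control, with no overlap, and the largest effect of the 11 at 0.77 ± 0.10 (adjusted p = 4.54e-05). The enzymes for tyrosine (YARS1), tryptophan (WARS1), isoleucine (IARS1) and serine (SARS1) rose by 0.49 to 0.60. The enzymes for threonine (TARS1) at 0.40, methionine (MARS1) at 0.38 and cysteine (CARS1) at 0.31 rose least. The CARS1 call was lost without control replicate 3 (0.26, adjusted p = 0.11) and without TGF-β1 replicate 1 (adjusted p = 0.0597) or 3 (adjusted p = 0.103). It was also lost without all libraries numbered 1 (adjusted p = 0.0845) or 3 (0.306), and the calls of CARS1 and MARS1 were lost under library size alone (adjusted p = 0.397 and 0.0778). MARS1 (chr12:57488068-57516652) and DDIT3 (chr12:57516588-57520517) overlap at their ends in RefSeq, and reads from the shared stretch cannot be told apart without strand.

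The synthetases for alanine (AARS1), leucine (LARS1) and glutamate with proline (EPRS1) did not pass the test. AARS1 had 242, 213 and 270 CPM with TGF-β1 and 228, 202 and 249 CPM in control, and in both groups replicate 3 was highest and replicate 2 lowest. Its effect was 0.09 (interval -0.16 to 0.34), that of LARS1 0.06 (interval -0.15 to 0.27) and that of EPRS1 0.10 (interval -0.07 to 0.27). The upper bound of each of these 3 intervals lies under the GARS1 effect. AARS1 holds the C/EBP-ATF letters in its promoter, as GARS1 does.

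The wider pathway, from lists chosen with earlier results of these data known, moved less evenly with TGF-β1. Of all genes tested, 16.2% rose and 16.6% fell. Of 15 genes for eIF2, its kinases and its exchange factor, 0 rose (4 at an unadjusted edgeR p under 0.05) and 2 fell: EIF2AK2, the kinase that senses double-stranded RNA, by 0.64 ± 0.14 (adjusted p = 0.00293), and the exchange factor subunit EIF2B2 by 0.32 ± 0.11 (adjusted p = 0.0392). With the replicate block 4 of the 15 rose and 4 fell. Of 12 genes for other cytosolic synthetases and their accessory proteins 4 rose, led by VARS1 at 0.58, RARS1 at 0.43 and HARS1 at 0.30. Of 17 mitochondrial synthetases 2 rose, EARS2 at 0.37 and RARS2 at 0.26, and 2 fell, CARS2 by 0.88 and IARS2 by 0.24. The mitochondrial shares lie under those of all genes tested, and the cytosolic share of rises lies above the 16.2%. With the block 6 of the 12 and 3 of the 17 rose, and 0 and 2 fell. Of all 13469 genes tested, 3308 rose and 3433 fell with the block.

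Among 23 further tested genes of one-carbon, serine, glutamine and proline metabolism, 6 rose and 7 fell with TGF-β1. Over all genes tested the shares were 16.2% and 16.6%. ALDH1L2, the mitochondrial enzyme that oxidises formyl-tetrahydrofolate, rose by 2.66 ± 0.14 (adjusted p = 1.46e-08), whereas its cytosolic counterpart ALDH1L1 fell by 1.14 ± 0.30 (adjusted p = 0.00999). The cytosolic SHMT1 fell by 0.93 ± 0.10 (adjusted p = 7.75e-06), in the opposite direction to the mitochondrial SHMT2. ASS1, which makes argininosuccinate, rose by 1.82 ± 0.21, and GOT1 fell by 0.60 ± 0.13. Of 11 amino acid transporters 5 rose and 1 fell. The cystine transporter SLC7A11 rose by 1.19 ± 0.17, SLC1A5 by 0.71 and SLC7A1 by 0.59, and the glutamine transporter SLC38A1 fell by 0.90 ± 0.09. With the block 7 of the 23 metabolic genes rose and 10 fell, and 6 of the 11 transporters rose and 2 fell. Of all 13469 genes tested, 3308 rose and 3433 fell with the block.

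The chaperone branch of the unfolded protein response, controlled by ATF6 and XBP1, rose in 12 of 16 genes, with a median of 0.76 on the log2 scale. Of all genes tested 16.2% rose and 16.6% fell. HSPA5, the chaperone BiP, rose by 1.45 ± 0.10 (adjusted p = 1.78e-07), XBP1 by 1.34 ± 0.11 and HYOU1 by 1.27 ± 0.08, and ATF6 itself fell by 0.25 ± 0.08 (adjusted p = 0.0312). The summed level of the 16 genes was 7210 to 7827 CPM with TGF-β1 and 3582 to 3658 CPM in control. Of 13 further stress-response genes 3 rose, VEGFA at 1.20, the tRNA exporter XPOT at 0.83 and HERPUD1 at 0.61, and SQSTM1 fell by 0.55. With the block 6 of these 13 rose and 2 fell, and 13 of the 16 genes of the chaperone branch rose and 1 fell. Of all 13469 genes tested, 3308 rose and 3433 fell with the block.

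**Figure D3:**
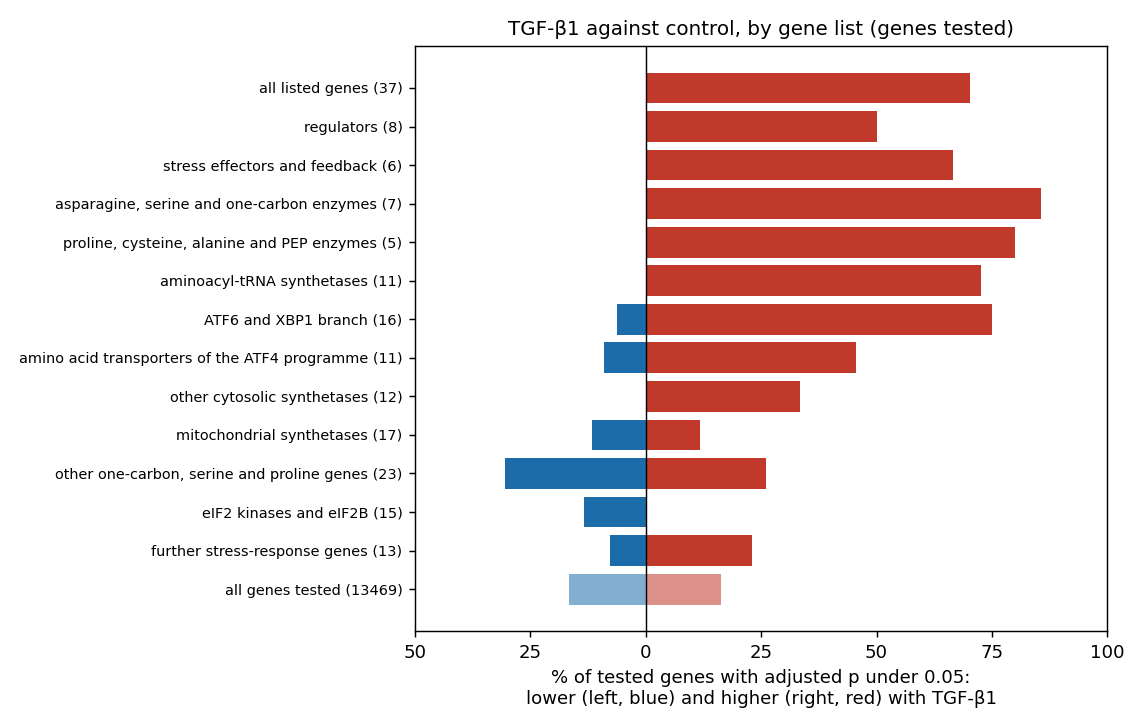
Share of the tested genes of each list (y axis, number tested in brackets) with adjusted p under 0.05 in TGF-β1 against control, with higher genes to the right in red and lower genes to the left in blue, on an axis in percent. All 5 role groups of the 38 genes have red bars only, and the bottom bars give the 16.2% higher and 16.6% lower of all genes tested.

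The effect of TGF-β1 was measured a second time, between the combined group and dexamethasone alone, which share no library with the first comparison. Again 26 of 37 genes rose and 0 fell, where 15.9% of all genes tested rose and 16.4% fell, and the median effect was 0.50. By edgeR, 0 were lower at an unadjusted p under 0.05, and DESeq2 called 26 and 0. Of these, 25 rose in both comparisons. Across the 37 genes the 2 effects had a Pearson correlation of 0.871 and a Spearman correlation of 0.822, and 35 had the same sign. Across all 13469 genes the same measures were 0.882 and 0.82, with 82.4% of the same sign. These are descriptions across genes, which are not independent, and libraries of the 2 comparisons share replicate numbers.

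PYCR1 had 158, 137 and 115 CPM with both treatments and 43.2, 42.2 and 29.2 CPM with dexamethasone, an effect of 1.86 ± 0.18 (adjusted p = 8.19e-06) close to the 1.77 without dexamethasone. ASNS (1.42 ± 0.23) and MTHFD1L (1.34 ± 0.11) were also close to their first values. ATF4 rose by 0.55 ± 0.12 (adjusted p = 0.00238), with no overlap between the combined and the dexamethasone libraries. JDP2 had 69.2, 57.4 and 64.2 CPM with both and 49.5, 41.8 and 46.0 CPM with dexamethasone, and it rose by 0.48 ± 0.10 (adjusted p = 0.0019). CEBPB, which rose without dexamethasone, did not pass the test here, at 0.25 (interval -0.04 to 0.55, adjusted p = 0.183; 0.0282 with the replicate block). TRIB3, at 0.69, and PPP1R15A, at 0.35, did not pass the test (adjusted p = 0.129 and 0.241) and passed it with the block (0.0392 and 0.0034). TRIB3 also passed with only the groups compared (adjusted p = 0.0458), without TGF-β1 replicate 2 (0.0262), without combined replicate 2 (0.0444) and without all libraries numbered 2 (2.24e-04). CEBPG, MARS1 and SESN2 lost their calls when single libraries were left out. For CEBPG these were dexamethasone replicate 2 (adjusted p = 0.053) and combined replicates 1 (0.0545) and 3 (0.083). For MARS1 they were dexamethasone replicate 3 (adjusted p = 0.0607) and combined replicate 1 (0.0743), and for SESN2 dexamethasone replicate 2 (0.0503). Leaving out all libraries of a number also lost calls. Without number 1 these were ALDH18A1 (adjusted p = 0.0762), WARS1 (0.0567), CHAC1 (0.0765), NUPR1 (0.056), CEBPG, MARS1 and SESN2. Without number 3 they were PHGDH (adjusted p = 0.119), CHAC1 (0.0531), NUPR1 (0.0945), CEBPG, MARS1 and SESN2. Without number 2 it was SESN2 (adjusted p = 0.0542).

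**Figure D4:**
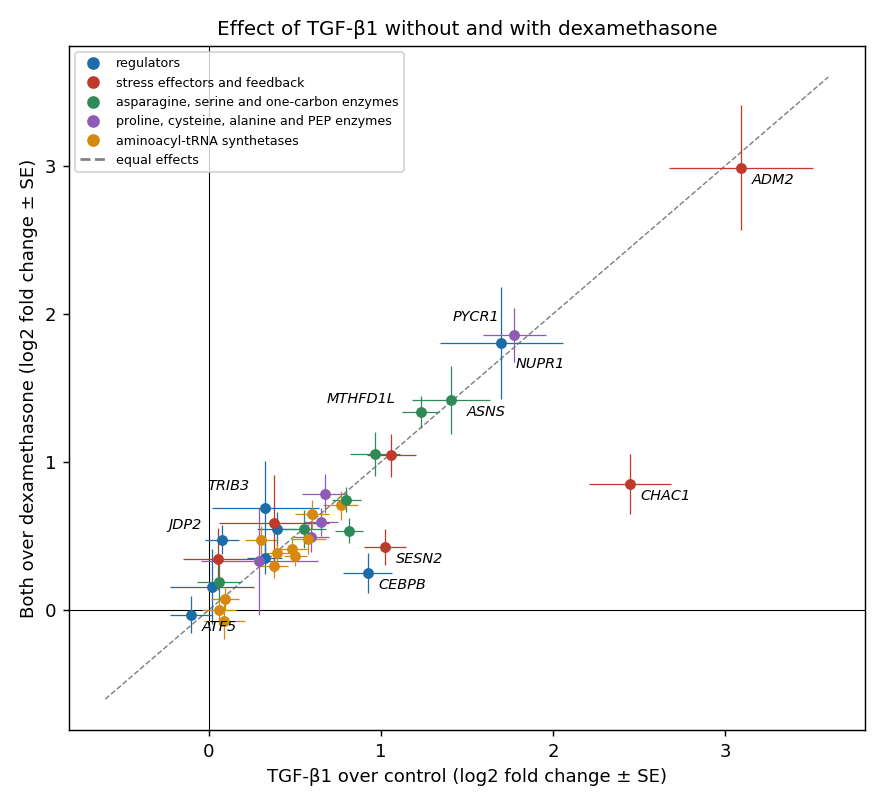
Log2 fold change ± SE of TGF-β1 over control (x axis) against that of both treatments over dexamethasone (y axis) for the 37 tested genes, coloured by role, with a dashed line for equal effects. Most genes lie near the line, and CHAC1 at 2.45 and 0.85, SESN2 and CEBPB lie below it.

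Dexamethasone alone moved a share of the 37 tested genes near that of all genes tested. Against control 3 rose and 1 fell, where 5.54% of all genes tested rose and 4.9% fell, and the median effect was -0.05. DESeq2 called 2 higher and 1 lower. With the replicate block 4 rose and 5 fell, against 10.8% and 11.4% of all genes tested. CEBPB had 537, 446 and 475 CPM with dexamethasone and 120, 104 and 97.4 CPM in control. The lowest dexamethasone library exceeds the highest control library several times over, and the effect was 2.18 ± 0.14 (4.55-fold, adjusted p = 2.34e-07). CHAC1 had 5.32, 4.91 and 4.31 CPM with dexamethasone and 1.36, 2.17 and 1.35 CPM in control, again without overlap, an effect of 1.61 ± 0.25 (adjusted p = 4.62e-04). Both calls held in all 15 settings that left out libraries. CHAC1 passed the count filter only through the treated groups, which favoured a rise.

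SESN2 rose with dexamethasone by 0.42 ± 0.13 (adjusted p = 0.047; 0.00302 with the replicate block), with 20.8, 17.5 and 21.4 CPM against 15.9, 15.7 and 13.8 CPM in control. PPP1R15A fell by 0.73 ± 0.21 (adjusted p = 0.0464; 3.94e-06 with the block), with 60.3, 37.2 and 43.9 CPM against 84.8, 75.9 and 73.2 CPM in control. In both genes the groups do not overlap, and both lie near the threshold. The SESN2 call held in 4 of 15 settings that left out libraries and its effect was 0.28 (adjusted p = 0.535) without those numbered 3. It was also lost by the DESeq2 Wald test (adjusted p = 0.0547), with DESeq2 size factors (0.0549), library size alone (0.0759), no count filter (0.0787) and only the groups compared (0.0718). Among single libraries, it was lost without any one of the control group, without dexamethasone replicate 1 (adjusted p = 0.133) or 3 (0.178), without TGF-β1 replicate 3 (0.0614) and without any single combined library. The PPP1R15A call held in 7 of the 15 and was lost with no count filter (adjusted p = 0.154). It was lost without any single control library, without dexamethasone replicate 2 (adjusted p = 0.152) or 3 (0.16), without TGF-β1 replicate 3 (0.0681) and without combined replicate 3 (0.0693).

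With the block, JDP2 also rose with dexamethasone by 0.25 (adjusted p = 0.034). The synthetases YARS1 (-0.28, adjusted p = 4.18e-04), CARS1 (-0.24, adjusted p = 0.0174) and TARS1 (-0.18, adjusted p = 0.00996) and the nuclear protein NUPR1 (-0.57, adjusted p = 0.00483) fell. ATF4 had an effect of -0.05 with an interval of -0.30 to 0.19, and PYCR1 one of -0.05 with an interval of -0.46 to 0.35. STC2 had 122, 99.4 and 73.0 CPM with dexamethasone and 177, 269 and 110 CPM in control, groups that overlap, an effect of -0.92 ± 0.33 that did not pass the test (adjusted p = 0.124; 0.068 with the block). Without control replicate 3 the STC2 effect was -1.20 (adjusted p = 0.0297). TRIB3 had 42.1, 37.0 and 33.4 CPM with dexamethasone and 66.9, 46.2 and 58.2 CPM in control. These groups do not overlap, but TRIB3 did not pass the test, with or without the block. It passed with only the groups compared (-0.62, adjusted p = 0.0146) and without all libraries numbered 2 (-0.74, adjusted p = 0.00254).

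Outside the 38 genes, GLUL, which makes glutamine, rose with dexamethasone by 2.17 ± 0.10 (adjusted p = 6.69e-09), and ALDH1L1 rose by 0.98 ± 0.25 and ALDH1L2 by 0.75 ± 0.16. Of the transporters SLC7A1 rose by 0.45 and SLC38A1 by 0.44, and SLC7A11 fell by 0.94 ± 0.19 (adjusted p = 0.00405) and SLC7A5 by 0.54 ± 0.16 (adjusted p = 0.0463; 0.0864 with the block). Of the further stress-response genes GADD45A rose by 0.66 ± 0.09, and VEGFA fell by 1.96 ± 0.34 (adjusted p = 0.0033) and SQSTM1 by 0.51 ± 0.12. The eIF2 list of 15 genes and the 12 genes for other cytosolic synthetases and accessory proteins had 0 calls by edgeR in either direction. At an unadjusted p under 0.05 they also had 0. Of all genes tested 5.54% rose and 4.9% fell. With the block EIF2AK2 of the eIF2 list fell (-0.22, adjusted p = 0.02). VARS2 rose among the mitochondrial synthetases, at 0.69, and ERN1 (1.26) and CRELD2 (0.36) rose in the ATF6 and XBP1 branch. With the block 1 of the 13 further stress-response genes rose and 7 fell, and 4 of the 23 metabolic genes rose and 2 fell. In the ATF6 and XBP1 branch 4 of the 16 genes rose and 1 fell. Over all genes tested, 10.8% rose and 11.4% fell with the block.

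Added to TGF-β1, dexamethasone raised 2 of the 37 genes and lowered 0, where 5.09% of all genes tested rose and 3.01% fell in the combined group against TGF-β1. By edgeR 4 were lower at an unadjusted p under 0.05, and DESeq2 called 1 lower. With the block 2 rose and 6 fell, against 9.47% and 8% of all genes tested. CEBPB had 604, 537 and 593 CPM with both treatments and 241, 154 and 214 CPM with TGF-β1, with no overlap, an effect of 1.51 ± 0.14 (adjusted p = 7.12e-06). JDP2 had 69.2, 57.4 and 64.2 CPM with both and 38.7, 41.8 and 41.4 CPM with TGF-β1, again with no overlap, an effect of 0.65 ± 0.10 (adjusted p = 5.47e-04). CHAC1 had 11.02, 7.83 and 7.36 CPM with both and 7.71, 8.97 and 8.75 CPM with TGF-β1, and these overlap, with an effect of 0.02 (interval -0.41 to 0.44).

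The 6 genes that fell with the block in this comparison were PPP1R15A (-0.44, adjusted p = 0.00128), NUPR1 (-0.45, adjusted p = 0.00341), MTHFD2 (-0.27, adjusted p = 0.00277), YARS1 (-0.23, adjusted p = 0.00266), TARS1 (-0.20, adjusted p = 0.00637) and IARS1 (-0.16, adjusted p = 0.0249). MTHFD2 had 126, 115 and 116 CPM with both and 161, 136 and 135 CPM with TGF-β1, so that all combined libraries lie below the TGF-β1 libraries (adjusted p = 0.0525 without the block). PYCR1 had an effect of 0.03 (interval -0.35 to 0.40), ASNS one of -0.15 (interval -0.61 to 0.31) and SHMT2 one of -0.01 (interval -0.19 to 0.17). ATF4 had 308, 269 and 256 CPM with both against 286, 255 and 239 CPM with TGF-β1, an effect of 0.10 (interval -0.15 to 0.35).

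**Figure D5:**
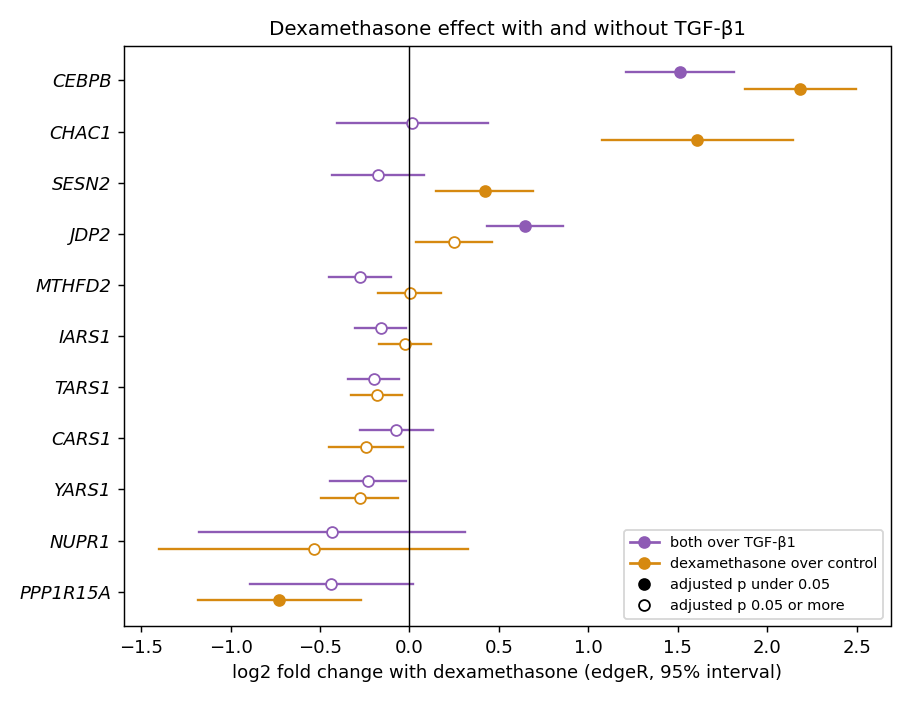
Log2 fold change of dexamethasone with TGF-β1 present (both over TGF-β1, purple) and absent (dexamethasone over control, orange) on the x axis, with 95% intervals of edgeR, for the 11 genes (y axis) called in either comparison with or without the replicate block. CEBPB is filled in both, CHAC1 is at 1.61 in orange and 0.02 in purple, and filled points mark adjusted p under 0.05 without the block.

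The combined group against control brought 25 rises and 0 falls among the 37 genes, where 18.5% of all genes tested rose and 18.1% fell. By edgeR 1 was lower at an unadjusted p under 0.05, and DESeq2 called 25 and 0. With the block 26 rose and 2 fell, against 26.5% and 26.7% of all genes tested, and the 2 were ATF5 (-0.31, adjusted p = 0.0122) and PPP1R15A (-0.39, adjusted p = 0.00106). CARS1, at 0.23, was the additional rise (adjusted p = 0.0708; 0.00592 with the block). CEBPB was at 5.41-fold of control (2.44 ± 0.15), CHAC1 at 5.51-fold (2.46 ± 0.24), PYCR1 at 3.49-fold and JDP2 at 1.65-fold. This comparison shares its control libraries with those of each single treatment. The count was 16 without the 4 libraries numbered 1 and 16 with scaling by library size alone.

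Whether the effects of the 2 treatments added up on the log2 scale was tested by an interaction, which subtracts the effect of dexamethasone alone from its effect on top of TGF-β1. It was called for 1 of the 37 genes, in the lower direction, and for 0 in the higher direction, where 0.483% of all genes tested were higher and 0.401% lower. By edgeR 1 was higher at an unadjusted p under 0.05, and DESeq2 called 0 higher and 1 lower. With the block 3 were lower and 0 higher, against 1.77% and 3.01% of all genes tested. CHAC1 averaged 8.48 CPM with TGF-β1, 4.85 with dexamethasone, 8.74 with both and 1.63 in control (SD 0.67, 0.51, 1.99 and 0.47, n = 3 each). Each treatment alone raised it, and the combined level lies within reach of the level with TGF-β1 alone. Its interaction was -1.59 ± 0.32 (adjusted p = 0.0327; 0.00139 with the block), with a 95% interval of -2.28 to -0.91.

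The CHAC1 interaction was between -1.78 and -1.34 in the 15 settings that left out libraries and passed the test in 2 of them, without control replicate 2 (adjusted p = 0.0228) and without combined replicate 1 (adjusted p = 0.0207). Without any other single library it missed the threshold, with adjusted p from 0.0521 to 0.16. CEBPB averaged 203 CPM with TGF-β1, 486 with dexamethasone, 578 with both and 107 in control, and its interaction was -0.67 ± 0.20 (adjusted p = 0.203; 0.00987 with the block). Without TGF-β1 replicate 2, the lowest of its group, the CEBPB interaction was -0.84 (adjusted p = 0.0174). SESN2 had an interaction of -0.60 ± 0.17 (adjusted p = 0.203; 0.00939 with the block), and JDP2 one of 0.40 ± 0.14 (adjusted p = 0.357; 0.0664 with the block). For PYCR1 the interaction was 0.08 (interval -0.47 to 0.63), for ASNS 0.01 (interval -0.68 to 0.70) and for ATF4 0.15 (interval -0.20 to 0.50), and these intervals are too wide to show equal effects.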

How the data were processed

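The deposited table gives read counts by gene identifier, whole numbers to which the authors applied no scaling. Per the submitters' processing notes, featureCounts was used on build hg38; no aligner, annotation, version or strand setting is given in the sources used here. Per the labels, libraries were made from polyadenylated RNA with a kit that does not mark strand, so overlapping and antisense genes cannot be told apart. Of 18 count columns, 6 have no label and were not used. RefSeq symbols of GRCh38.p14 were matched to 27745 of 28395 identifiers.

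Genes were kept by filterByExpr of edgeR with a minimum count of 10, which left 13469. All 12 libraries entered one model with a mean per group, TMM scaling and edgeR's robust quasi-likelihood test (R 4.3.3 with edgeR 4.0.16 and limma 3.58.1), with Benjamini-Hochberg adjusted p under 0.05 as the threshold. SE is the log2 fold change divided by the root of the F statistic. CPM are on TMM-scaled library sizes; levels per kb divide CPM by the union of exons in GENCODE 29. Depth was 5861591 to 7008203 counts in replicates 1 and 2 and 17968961 to 19727235 in replicate 3, so replicate 3 carries less counting error. The scripts were tested on simulated data. Motif searches and figures used pandas 2.3.3 and matplotlib 3.10.9 in Python 3.11.15.

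All 18 pairs of libraries with the same replicate number had correlated deviations from their group means (0.25 to 0.541, threshold 0.1), so the numbers were taken as pairing the libraries. With the number as a block, edgeR's common biological coefficient of variation was 0.0577, beside 0.122 without it. The fit described first has no block, and blocked values stand beside the calls and counts of the 38 genes that they change, and beside the list counts. Alternatives were DESeq2 1.42.0 (size factors, and its Wald test), library size alone, no count filter, only the groups compared, the block, and leaving out each library or each number.

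The 38 genes, the other gene lists and the motifs were chosen with earlier results of these data known. All 38 could be named; of the other lists, per comparison, no more than the 3 called genes that rose most and the 3 that fell most. The lists and motifs are those named in the results, with markers of epithelial, leukocyte, endothelial, fibroblast and alveolar cells; the 5 endothelial genes summed to 1.77 to 5.72 CPM over the 12 libraries. Some genes of these other lists are not reported here.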

Additional observations from a re-analysis of the deposited data

Results flagged for a closer look

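The effect of dexamethasone on CHAC1 differed between cells with and without TGF-β1 by a test of the difference itself. The interaction was -1.59 on the log2 scale (edgeR, adjusted p = 0.0327), the dexamethasone effect being 0.02 on top of TGF-β1 and 1.61 on its own. It passed the test in 2 of 15 settings that left out libraries. CHAC1 had 68, 45 and 121 reads with both treatments and 9, 14 and 28 reads in control. It passed the count filter only through the treated groups. The part of counting error and of the filter in the difference was not tested.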

How the results depend on the processing

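In TGF-β1 against control, 21 to 27 of the 37 genes rose when libraries were left out and 22 with library size alone; in both treatments against dexamethasone these were 19 to 27 and 22, with 1 fall under library size alone (0 in the main test). For both against control, 16 to 26 rose when libraries were left out (16 without replicate 1), and library size alone gave 16 rises and 2 falls and the replicate block 2 falls. For dexamethasone against control, 2 to 4 rose and 0 to 3 fell without some libraries, and 4 fell with library size alone, 0 with no count filter, 5 with the block and 2 with only the groups compared (1 in the main test). For both against TGF-β1, 3 fell with library size alone, 1 by the DESeq2 Wald test and 6 with the block (0 in the main test). For the interaction, 3 genes were lower with the block and 0 to 1 without some libraries. TARS1 in both against control turned to -0.0603 under library size alone (adjusted p = 0.466), beside 0.20 in the main test. Library size alone moved the median of all genes to -0.22 in TGF-β1 against control, -0.23 in both against dexamethasone and -0.27 in both against control, and the share of higher among called genes to 22.4%, 22.9% and 21%, beside 49.5%, 49.3% and 50.6% in the main test. Over single genes and comparisons, the block brought 19 more calls and lost 0, and leaving out libraries lost 92 and brought 13, with 0 reversals. Calls over all genes were 3308 higher and 3433 lower with the block in TGF-β1 against control (1251 and 4332 with library size alone, 2186 and 2230 in the main test). They were 1461 and 1535 with the block for dexamethasone against control (746 and 660). For both against dexamethasone they were 3229 and 3498 with the block, 1325 and 4472 with library size alone and 2145 and 2207 in the main test. Both against TGF-β1 gave 1275 and 1078 with the block (686 and 406), both against control 1416 and 5342 with library size alone (2491 and 2434), and the interaction 406 and 238 with the block and 135 higher by the DESeq2 Wald test (65 and 54). Leaving out the 4 libraries numbered 1 gave the fewest calls over all genes in each comparison. Beyond the values beside the results, the block changed no other call of these genes. Depth limits the scarce genes: CHAC1 had 9 to 68 reads and ADM2 1 to 20 in the libraries of replicates 1 and 2.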

Other observations

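Genes of the neighbouring lists were also read in the combined group. GADD45A, a growth arrest gene, had a higher dexamethasone effect with TGF-β1 than without it, by 0.97 ± 0.13 on the log2 scale (edgeR interaction, adjusted p = 0.00305). It rose by 1.64 ± 0.09 in the combined group against TGF-β1 and by 0.66 ± 0.09 with dexamethasone against control. GLUL, which makes glutamine, had an interaction in the other direction, -0.96 ± 0.13 (adjusted p = 0.00344). It rose by 1.21 ± 0.09 in the combined group against TGF-β1 and by 2.17 ± 0.10 with dexamethasone against control.

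ASS1, of arginine synthesis, was at 3.01 ± 0.21 (log2 fold change) in the combined group against control and rose by 1.19 ± 0.19 against TGF-β1 alone (adjusted p = 0.00139). EIF2AK3, the eIF2 kinase PERK of the endoplasmic reticulum, rose by 0.48 ± 0.09 in the combined group against control (adjusted p = 0.00102). With TGF-β1 alone its effect was 0.21 ± 0.09 and did not pass the test (adjusted p = 0.104; 0.0564 with the replicate block). EIF2AK4, the kinase GCN2 that senses uncharged tRNA, was at -0.17 ± 0.08 with TGF-β1 (adjusted p = 0.115; 0.0261 with the block), a gene named after its values were seen. The tRNA exporter XPOT rose by 0.73 ± 0.09 in the combined group against control.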
